A study of Mus musculus with 31 samples.

Results

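This account covers probe sets of an Affymetrix mouse genome array that carried signal but had no gene name in the array annotation used here. Of 45037 probe sets other than array controls, 34945 had 1 gene symbol, 932 had several and 9160 had none. The study already listed 68 unnamed probe sets, 58 of them as changed in Crebbp+/- fetal liver hematopoietic stem cells (FL HSCs). The others were listed with its quantitative RT-PCR validation, and all 68 were set aside. Of the remaining 9092, those selected on level, by a highest sample of at least log2(100), or 6.64, in at least 1 of the 4 experiments, came to 2464 members (27.1%). The same minimum was reached by 20088 of 34801 probe sets with exactly 1 gene symbol (57.7%), called single-gene probe sets below. An unnamed probe set is one for which this annotation gives no gene. It can still lie in a gene, since the table used here lists only probe sets with a symbol and may be incomplete, and several of the brightest members had like levels in every sample. Neither its position nor its probe sequences were available here, and several members may read the same transcript.

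The study compared cells with reduced or absent CREBBP, EP300 or CDKN1A with wild-type (WT) cells on 31 arrays, which represent 23 samples. FL HSCs were sorted as Sca-1+ Lin- AA4.1+ c-Kit++ cells from livers of 14.5 dpc embryos, and each sample pooled 15 embryos. The Crebbp and the Ep300 experiment each held 2 WT and 2 heterozygous samples on the C57BL/6 background, every sample was run on 2 technical arrays that are averaged here, and the mutant and WT sample of the same number form a pair. The Cdkn1a experiment held 3 WT and 4 Cdkn1a-/- samples, labelled B6/129Sv. Per the methods the nulls carry the Cdkn1atm1Tyj allele and the WT controls are B6129SF2 mice, bought as separate stocks, so strain differences between the stocks and the Cdkn1a genotype cannot be told apart. Mouse embryonic fibroblasts (MEFs) came from 4 litters at 14.5 dpc, with 1 WT and 1 Crebbp+/- embryo per litter, also on C57BL/6. All alleles are germline, so every cell of a mutant embryo carries them, and WT controls carry none.

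Most array probe sets were designed against clustered cDNA and expressed sequence tags, and tags that come from introns, repeats or regions between genes often stay without a gene name. Unspliced precursor RNA is normally confined to the nucleus and short-lived, and it enters oligo(dT)-primed amplification where a transcript holds an internal run of adenines. CREBBP and EP300 are related coactivators that acetylate histones and other proteins at active genes, and CDKN1A is a cyclin-dependent kinase inhibitor that restrains cell cycle entry. The members are used here as a proxy for RNA from introns, repeats and intergenic sequence, and the question was how they differed between mutant and WT cells within each experiment, beside single-gene probe sets of like level. Each experiment was normalized on its own, so levels are compared only within an experiment. In bulk samples, fewer cells of a type and less RNA per cell cannot be told apart.

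Marker averages matched the labelled cell types, though not every single marker did, and 1 sample stood apart. The 5 measured stem cell markers, Kit, Cd93, Cd34, Gata2 and Meis1, averaged 10.14 to 12.99 (log2 level) in the FL HSC samples and 4.74 to 5.61 in MEFs. Kit, Cd93 and Cd34 were below the minimum in every MEF sample. Gata2 reached 7.15 in MEFs, and Meis1 read 9.08 to 9.65 there against 6.86 to 7.58 in the Crebbp and Ep300 FL HSCs, in their own normalizations. The 5 measured fibroblast markers averaged 13.45 to 14.20 in the MEFs and at most 3.02 in FL HSCs. The sample that stood apart was Cdkn1a WT sample 3. In it the 4 measured erythroid markers averaged 8.32, the 5 hepatocyte markers 13.62 and the 6 macrophage markers 9.35, with Hba-a1 and C1qa the measured markers below the minimum, whereas no Cdkn1a-/- sample exceeded 2.75, 7.86 and 2.86 for these lists. The hepatocyte markers averaged 2.87 to 6.51 in Crebbp WT and 5.42 to 5.75 in Crebbp+/- FL HSCs. The externally added polyadenylated control RNAs were also highest in this sample, for example 14.77 for the dap control against 10.68 to 12.15 in the other 6 Cdkn1a samples. Results from that experiment are therefore given with and without WT sample 3. For the targeted genes, the brightest Crebbp probe set (1435224_at) read 9.38 to 9.50 in Crebbp+/- MEFs against 10.15 to 10.34 in WT MEFs, but overlapped in FL HSCs, where the dimmer 1436983_at did not overlap (6.31 to 6.72 in Crebbp+/- against at least 6.88 in WT samples). Ep300 (1434765_at) read 9.46 to 9.47 in Ep300+/- and 9.53 to 9.60 in WT FL HSCs. The brighter Cdkn1a probe set (1424638_at) read 5.30 to 8.07 in nulls and 7.66 to 8.86 in WT, so the groups overlapped, and whether these probes lie in the deleted sequence was not tested.

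Unnamed probe sets reached the minimum most often in the Cdkn1a FL HSC experiment and least often in MEFs. The same minimum was applied to 4 separately normalized scales. The median level of detected single-gene probe sets was 8.52 in the Crebbp, 8.74 in the Ep300 and 10.18 in the Cdkn1a experiment, and 8.75 in MEFs. Counts over the minimum are therefore not on 1 scale across experiments, and the part of the scale was not tested. In the Cdkn1a experiment, 2334 of the 9092 unnamed probe sets reached the minimum (25.7%), against 51.4% of single-gene probe sets. The shares were 10.3% (941) in the Crebbp experiment, 10.9% (988) in the Ep300 experiment and 7.72% (702) in MEFs, against 31.6%, 32.5% and 41.0% of single-gene probe sets. MEF arrays thus detected more single-gene probe sets than the Crebbp and Ep300 FL HSC arrays (14279 against 11011 and 11309) but fewer members. On single arrays, unnamed probe sets made up 6.35% to 8.08% of all that reached the minimum in the Crebbp and Ep300 experiments, 8.96% to 10.7% in the Cdkn1a experiment and 4.26% to 4.44% in MEFs. The FL HSC methods included amplification of 12 ng of RNA, and for MEFs the methods state unamplified RNA whereas the sample labels give the amplification protocol, so cell type and RNA preparation cannot be told apart in this contrast.

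The largest class of members, 1173 (47.6%), reached the minimum in the Cdkn1a experiment alone, a class that depends on the scale of that experiment. A further 446 (18.1%) reached it in all 3 FL HSC experiments but not in MEFs, 433 (17.6%) in all 4 experiments, and 123 (5%) in MEFs alone. Members were mostly dim where they were detected. Their median level was 7.78 in the Crebbp experiment (quartiles 6.83 and 9.17), against 8.52 for single-gene probe sets, and 8.32 against 10.18 in the Cdkn1a experiment. In MEFs, in contrast, the medians were alike, at 8.74 and 8.75. Just inside the minimum lay 1439933_at and 1457914_at, both with a highest sample of 6.65 in the Cdkn1a experiment, and just outside it lay 1429545_at and 1442054_at, both at 6.64.

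Probe set design differed between members and single-gene probe sets. The suffix _at marks probe sets whose probes are unique to 1 transcript in the array design, whereas _a_at, _s_at and _x_at mark designs shared by variants, by related transcripts or open to cross-hybridization. Of the members, 2157 (87.5%) were of the _at design, against 77.2% of single-gene probe sets. Unnamed _at probe sets were the least often detected, with 25.3% of 8534 reaching the minimum, against 67.2% of 195 _a_at, 61.6% of 112 _s_at and 42.6% of 251 _x_at probe sets. Numbers from 1440000 to 1449999 were held by 958 members (38.9%), against 44.8% of all 9092 unnamed and 16.4% of single-gene probe sets.

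The brightest members lay near the top of the array's scale, where differences between samples can be compressed. The 6 highest over the FL HSC experiments, 1438986_x_at, 1437610_x_at, 1455319_x_at, 1416624_a_at, 1459986_a_at and 1437510_x_at, read 13.72 to 14.11 in each Crebbp and Ep300 sample and 15.26 to 15.85 in each Cdkn1a sample. The 6 highest in MEFs, 1437005_a_at, 1424000_a_at, 1428152_a_at, 1416054_at, 1449196_a_at and again 1416624_a_at, read 14.81 to 15.66 there. No mutant-minus-WT difference of these 11 probe sets exceeded 0.11 in size in any comparison. All 11 were bright in both cell types, and 10 of them carry the _a_at or _x_at suffix.

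Against this background, members were lower in Crebbp+/- than in WT FL HSCs, and those lower were mainly members not detected in MEFs. The Crebbp change had entered the choice of members, because probe sets tabulated for it were set aside, so its values are a description. Of the 1049 members tested with the 13332 probe sets of the joint Crebbp and Ep300 fit, 654 (62.3%) had a negative change, with a median of -0.12 on the log2 scale (-0.18 in pair 1 and -0.07 in pair 2). Single-gene probe sets weighted to the same levels in 10 bins had a median of 0.07, and 40.3% of them were negative. A decrease of more than 1.5 fold was seen in 286 members (27.3%) and an increase of that size in 41 (3.91%), against 4.44% and 7.09% of the weighted single-gene probe sets. In both pairs alike, 493 members were lower (47.0%) and 243 higher (23.2%), against 23.1% and 41.1% of single-gene probe sets.

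The decrease lay mostly, but not wholly, in members not detected in MEFs. The 460 members that also reached the minimum in MEFs had a median change of 0.03 (0.01 in pair 1 and 0.05 in pair 2), and 26 of them (5.65%) were lower and 3.26% higher by more than 1.5 fold, against 1.28% and 4.50% of weighted single-gene probe sets detected in MEFs. The 589 that did not had a median of -0.52 (-0.59 and -0.38), and 260 of them (44.1%) were lower by more than 1.5 fold. Single-gene probe sets were divided by MEF detection in the share that fell but hardly in their median. Weighted to the members' levels, 11.6% of those not detected in MEFs were lower by more than 1.5 fold, and the medians were -0.01 in these and 0.07 in those detected. This split was chosen after the values were seen and carries no test.

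**Figure D1:**
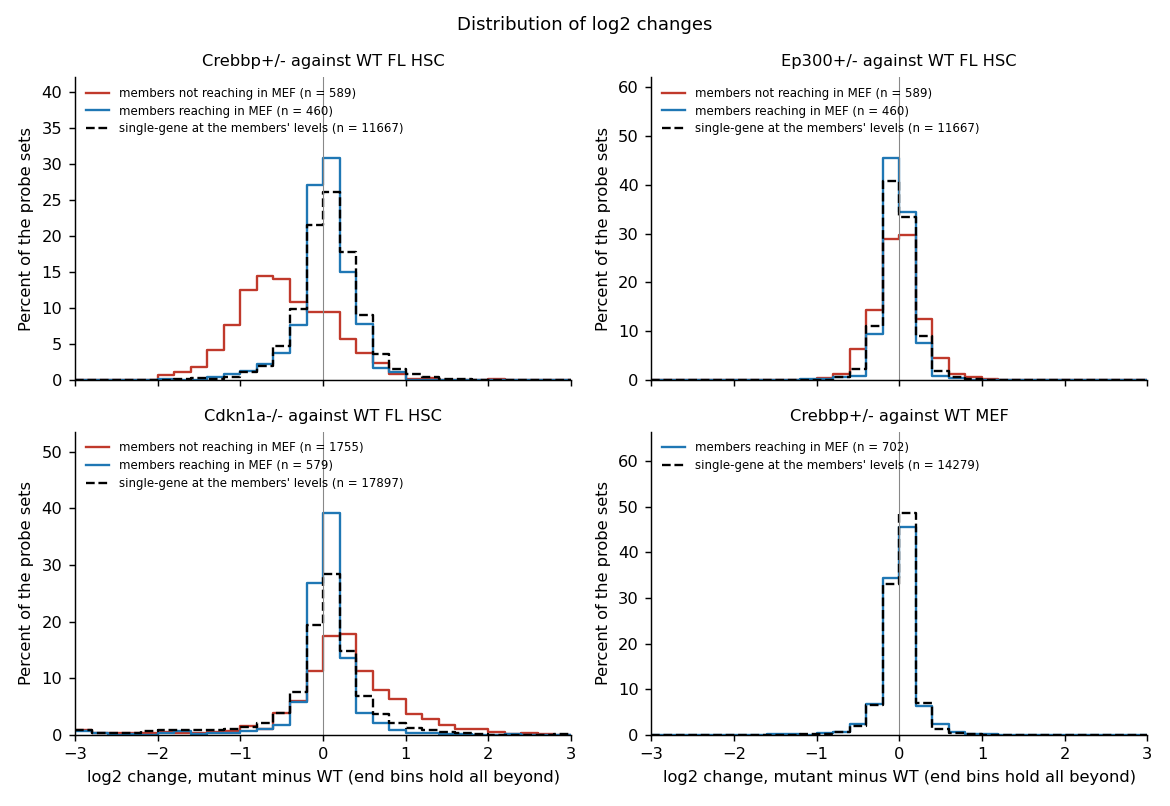
Percent of probe sets (y axis) by log2 change, mutant minus WT (x axis, bins of 0.2), in the 4 comparisons, for members that reached the level minimum in MEFs (blue), members that did not (red) and single-gene probe sets weighted to the members' levels (dashed). In the Crebbp FL HSC comparison the red curve peaks below 0 (median -0.52) whereas the other curves centre near 0, and in MEFs the members and the single-gene probe sets overlie each other.

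The same division followed probe set design and numbering. Members of the _at design had a median Crebbp change of -0.23 (n = 852), against 0.01 for _a_at (n = 84), -0.01 for _s_at (n = 43) and -0.03 for _x_at members (n = 70). The 318 members tested in the number block from 1440000 to 1449999 had a median of -0.56, and the other 731 a median of -0.03. Single-gene probe sets of that block, weighted in the same way, had a median of -0.06. Where the WT and the Crebbp+/- mean both had to reach the minimum, a condition that by itself removes members that fell, 17.1% of 694 members were lower by more than 1.5 fold, against 1.85% of weighted single-gene probe sets under the same condition. The 62 tested unnamed probe sets that had been set aside because the study tabulated them had a median of -1.07, and 61 were lower by more than 1.5 fold.

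In limma with the pair as a block, 7 members were called lower at an adjusted p under 0.05 (Benjamini-Hochberg over all 13332 probe sets) and a fold over 1.5, and none was called higher. The background over all probe sets was 0.308% called lower and 0.075% called higher. At an unadjusted p under 0.05 and the same fold, 253 members were lower (24.1%) and 32 higher (3.05%), where the background was 5.32% and 4.68%. Nothing is read from these shares, since the tabulated probe sets had been removed for this contrast. All 7 called members shared an adjusted p of 0.0486 and were of the _at design. None reached the minimum in MEFs, and in none did the Crebbp+/- mean reach it. The calls were lost without the pair block and in a fit of the 4 Crebbp samples alone (0 members each in limma, with 154 and 228 lower at an unadjusted p), as well as in every fit that left out a Crebbp or an Ep300 pair.

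The largest decrease was that of 1447184_at, which read 7.69 and 7.04 in WT and 5.91 and 4.91 in Crebbp+/- samples (log2 change -1.95, SE 0.13). 1430253_at read 7.40 and 7.16 in WT and 5.80 and 5.31 in Crebbp+/- samples (log2 change -1.72). 1443088_at read 5.85 and 5.44 against 4.03 and 3.98 (log2 change -1.64), and was a member through its Cdkn1a and Ep300 levels. In these 3 members the 2 genotypes did not overlap. The next 3, 1440587_at, 1444785_at and 1432567_at, changed by -1.55, -1.52 and -1.31, also with no overlap. In 1440014_at the groups overlapped, with 7.89 and 6.66 in WT against 6.71 and 5.40 in Crebbp+/- samples, although each pair fell (log2 change -1.22). The eighth by p, 1442785_at, read 7.56 and 7.38 in WT and 6.13 and 5.61 in Crebbp+/- samples and was not called (log2 change -1.60, limma adjusted p = 0.0505).

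**Figure D2:**
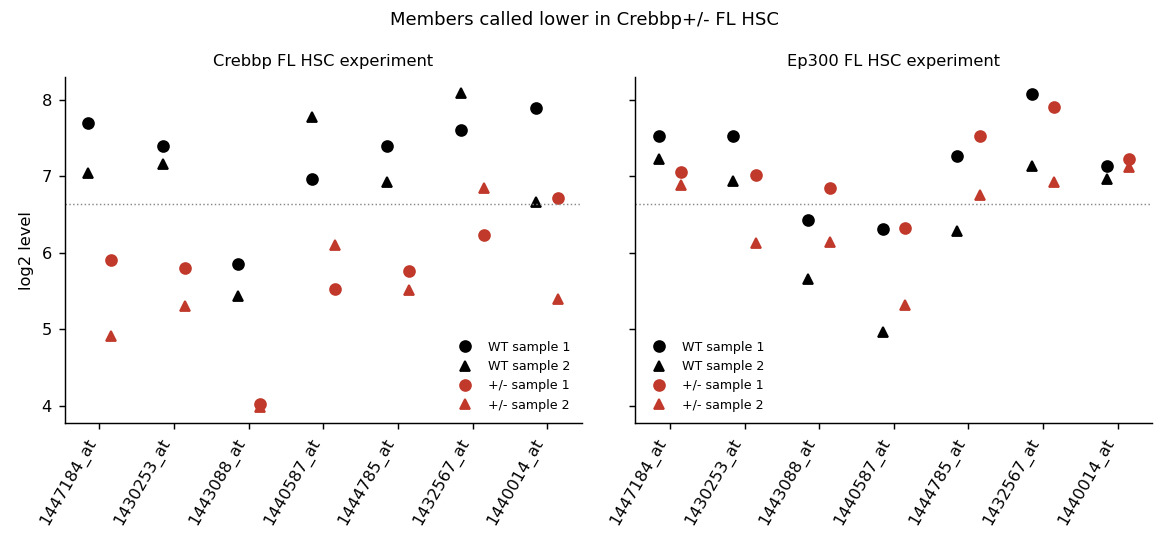
Level (y axis, log2) of the 7 members called lower in Crebbp+/- FL HSCs (x axis), in the Crebbp experiment (left) and the Ep300 experiment (right), with WT in black, the heterozygotes in red, sample 1 as circles and sample 2 as triangles; each point is 1 sample with its technical arrays averaged, and the dotted line is the minimum of 6.64. In the Ep300 experiment sample 2 lies below sample 1 in both genotypes for all 7.

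The members that were low in Crebbp+/- samples also differed between samples of 1 genotype, and between technical arrays of 1 sample, in the Ep300 experiment, which shares no sample with the Crebbp experiment. There, the 589 members not detected in MEFs were lower in sample 2 than in sample 1, with a median difference of -0.21 in WT and -0.37 in Ep300+/- cells, whereas the 460 detected in MEFs differed by 0.02 and -0.01. Of the 286 members lower by more than 1.5 fold in Crebbp+/- FL HSCs, 227 (79.4%) were lower in sample 2 in both Ep300 genotypes, with medians of -0.40 and -0.56, against 252 of the 722 members within 1.5 fold (34.9%). Single-gene probe sets lower by more than 1.5 fold had a similar share, 263 of 352 (74.7%), against 2680 of the 10731 within 1.5 fold. Across the 1049 members, the Crebbp change and the Ep300 sample difference, averaged over genotypes, had a Pearson r of 0.63 (0.55 with the WT and 0.55 with the Ep300+/- difference alone), and the 2 Crebbp pairs correlated with each other at 0.50. Across 11667 single-gene probe sets the corresponding values were 0.43 and 0.38. These are correlations across probe sets that share the same arrays and probe chemistry and may share transcripts, and they carry no test.

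**Figure D3:**
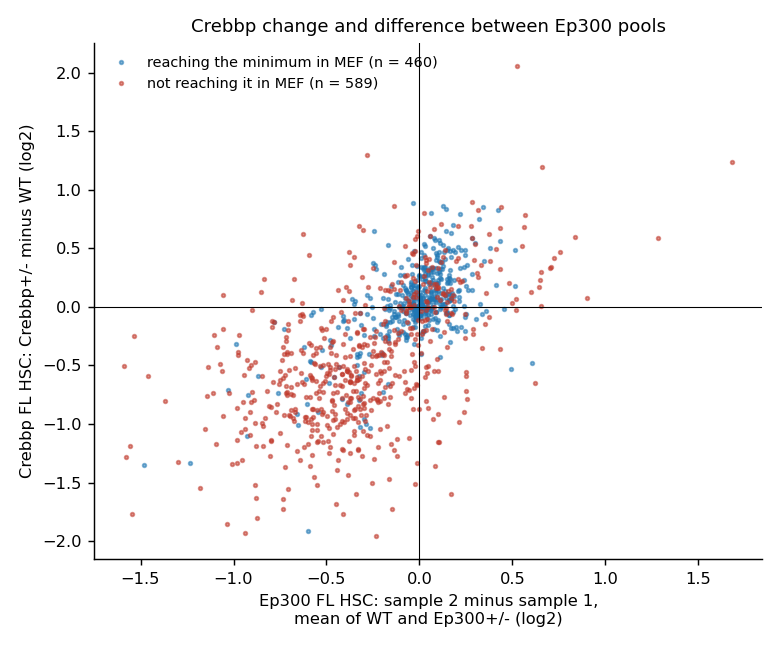
Crebbp+/- minus WT (y axis, log2) against sample 2 minus sample 1 in the Ep300 experiment, averaged over WT and Ep300+/- (x axis, log2), 1 point per member, blue where the member reached the level minimum in MEFs (n = 460) and red where it did not (n = 589). Red points extend into the quadrant where both differences are negative (r = 0.63 over all 1049), and the x axis averages 2 technical arrays per sample that differed from each other in Ep300 sample 1.

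The differences between Ep300 samples depended on the technical array. On array 1, sample 2 minus sample 1 had a median of -0.02 in WT and -0.11 in Ep300+/- cells over the 589 members, and on array 2 of -0.38 and -0.67. The 2 arrays of sample 1 differed by as much, with array 2 above array 1 by a median of 0.38 in WT and 0.32 in Ep300+/- cells, while the arrays of the other 6 samples of both experiments differed by -0.10 to 0.15. The 286 members lower by more than 1.5 fold in Crebbp+/- cells were higher on array 2 than on array 1 of the same Ep300 sample 1 by a median of 0.69 in WT and 0.70 in Ep300+/- cells, against 0.14 and 0.15 for the 352 single-gene probe sets lower by that fold. Across the 1049 members the Crebbp change and this array difference had an r of -0.51 in WT and -0.50 in Ep300+/- cells, and with the sample difference r was 0.16 and 0.13 on array 1 and 0.62 and 0.57 on array 2. A spread of this kind thus occurred between arrays of 1 sample. In the Crebbp experiment the 589 members were lower in Crebbp+/- cells on both arrays, with medians of -0.45 and -0.28 in pairs 1 and 2 on array 1 and of -0.73 and -0.37 on array 2.

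With technical arrays averaged, the same members set the samples of each experiment apart. For each member the mean over the samples of its experiment was subtracted, and the median over the 589 members not detected in MEFs was 0.38 and 0.09 in Crebbp WT samples 1 and 2, and -0.22 and -0.25 in the Crebbp+/- samples. In the Ep300 experiment it was 0.11 and -0.10 in WT and 0.19 and -0.17 in Ep300+/- samples. The genotypes were thus separate in the Crebbp experiment and interleaved in the Ep300 experiment, where samples of 1 genotype lay further apart than the genotypes. The study's tabulated intronic probe sets, which are not members and were chosen in the study for the Crebbp change, lay at 0.20 and -0.18 in Ep300 WT and 0.30 and -0.28 in Ep300+/- samples (n = 80).

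**Figure D4:**
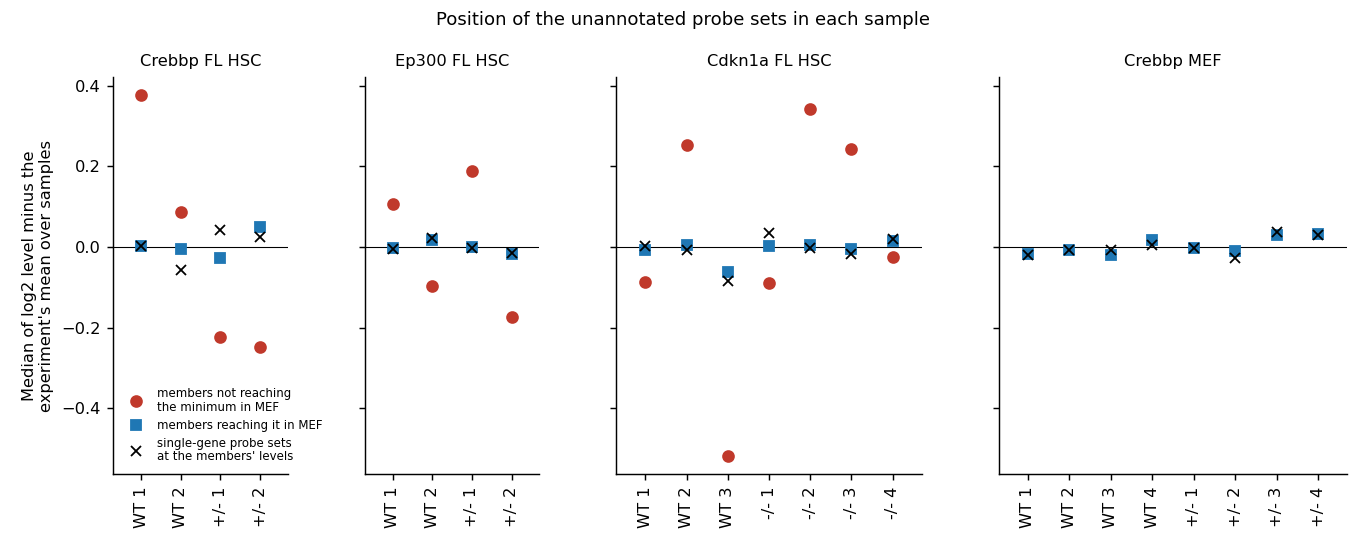
Median over probe sets of the log2 level minus the experiment's mean (y axis) in each sample (x axis), for members not reaching the level minimum in MEFs (red circles), members reaching it (blue squares) and single-gene probe sets weighted to the members' levels (crosses). Red points range from -0.52 (Cdkn1a WT sample 3) to 0.38 (Crebbp WT sample 1) while blue points and crosses stay between -0.08 and 0.05.

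Signal from 18S ribosomal RNA, which is not polyadenylated, was also higher in Crebbp WT than in Crebbp+/- samples and in Ep300 sample 1 than in sample 2. The middle 18S control probe set read 12.42 and 12.93 in Crebbp WT and 12.05 and 12.25 in Crebbp+/- samples. In the Ep300 experiment it read 12.68 and 12.17 in WT samples 1 and 2 and 12.73 and 12.47 in Ep300+/- samples 1 and 2, and within Crebbp WT its order was opposite to that of the members. Between the 2 arrays of Ep300 sample 1 it was opposite as well, with 13.02 on array 1 and 12.33 on array 2 in WT and 13.03 and 12.44 in Ep300+/- cells. It read 2.33 to 2.40 in MEFs. The difference between the 3′ and 5′ probe sets of Gapdh, a measure of transcript completeness, was 1.22 and 2.59 in Crebbp WT and 0.89 and 1.89 in Crebbp+/- samples, so that it was smaller in the Crebbp+/- sample of each pair and larger in sample 2 of each genotype. For Actb it was 2.13 and 3.19 in WT and 1.90 and 2.55 in Crebbp+/- samples. Among 5 measured nuclear noncoding RNAs, Malat1 read 12.62 and 12.61 in Crebbp WT against 12.16 and 12.04 in Crebbp+/- samples, a decrease the study also lists. It read 12.94 and 12.63 in Ep300 WT and 12.91 and 12.58 in Ep300+/- samples. Xist, Kcnq1ot1, Neat1 and Meg3 were also lower in both Crebbp+/- samples, the last 2 below the minimum. Between Ep300 samples 1 and 2 they were not alike. Xist read 11.04 and 11.07 in WT and 11.05 in both Ep300+/- samples. Kcnq1ot1 read 8.93 and 8.69 in WT and 9.0 and 8.99 in Ep300+/- cells. Neat1 read 6.16 and 6.27 in WT and 6.13 and 5.89 in Ep300+/- cells. Meg3, at 6.29 and 4.34 in WT and 5.86 and 4.36 in Ep300+/- cells, was lower in sample 2 of both genotypes. The part of these technical values in the members' differences was not tested.

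No member was called in Ep300+/- against WT FL HSCs. Their median change was -0.02 (0.03 in pair 1 and -0.06 in pair 2), the same as that of the weighted single-gene probe sets, -0.02. The members not detected in MEFs had a median of -0.01, with 10 lower and 12 higher by more than 1.5 fold among 589. limma called 0 of 13332 probe sets (a background of 0%), and at an unadjusted p under 0.05 with a fold over 1.5 it listed 12 members as lower and 7 as higher (1.81% of 1049), against a background of 0.78%. The methods' paired t-test at its unadjusted threshold listed 3 members and none after Benjamini-Hochberg adjustment. Its share over all probe sets is not given here.

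The 8 members with the smallest p in the Ep300 comparison were all uncalled, with a limma adjusted p of 1.00. The first, 1454311_at, read 7.33 and 6.26 in WT and 6.40 and 5.52 in Ep300+/- samples (log2 change -0.83), and the genotypes overlapped. 1444100_at read 7.94 and 7.38 in WT and 6.82 and 6.21 in Ep300+/- samples without overlap (log2 change -1.15). 1440304_at had a log2 change of -0.83 here and of -1.15 in the Crebbp comparison, uncalled in both. The 3 _x_at members 1439451_x_at, 1454870_x_at and 1439200_x_at had values of -0.65, -0.82 and -0.62, 1456169_at of -0.50, and 1460096_at, with 0.58, was the only one of the 8 with a higher level in Ep300+/- cells.

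The difference between the Crebbp and the Ep300 effect was tested as a contrast in the joint fit. limma called 0 members and 0 of all probe sets (a background of 0%), while at an unadjusted p under 0.05 with a fold over 1.5 there were 187 members with the lower and 41 with the higher value in Crebbp (21.7%), against a background of 9.98%. This contrast contains the Crebbp change that had entered the choice of members, so the share is not read further. The 4 members with the smallest p were among those called in the Crebbp comparison. None of these differences was called. 1443088_at had the largest, -2.09 (SE 0.18, limma adjusted p = 0.149), as it read 6.43 and 5.66 in Ep300 WT and 6.85 and 6.14 in Ep300+/- samples. 1444785_at, 1440014_at and 1440587_at had differences of -1.88, -1.34 and -1.74.

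Loss of Cdkn1a was accompanied by large differences in a small number of members. limma, without pairing, called 16 members lower and 4 higher among 2334 tested, or 0.686% and 0.171%, where the background over all 20962 probe sets was 0.353% lower and 0.0525% higher. WT and Cdkn1a-/- samples did not overlap in any of the 20, which the calls make likely, so nothing is read from it. No share of non-overlap over all probe sets is given here. Of the 20, 14 fell by more than 4 fold. The members called lower included 8 that were also detected in MEFs, and 16 of the 20 were of the _at design.

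**Figure D5:**
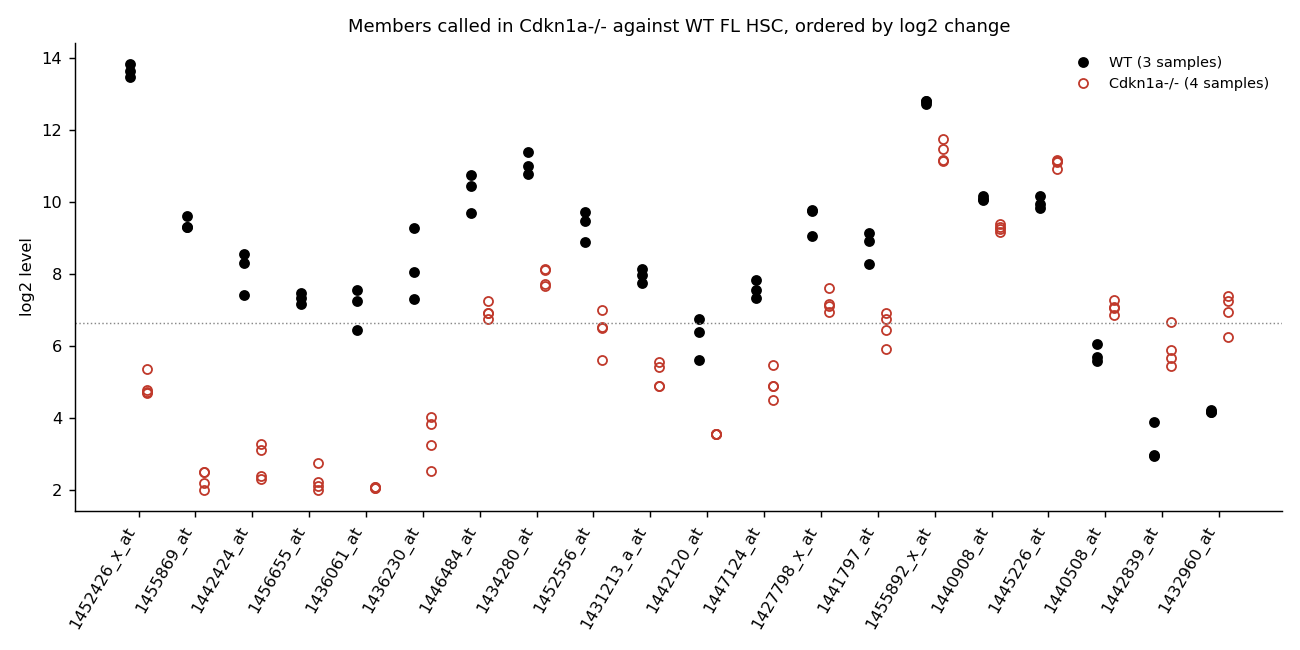
Level (y axis, log2) of the 20 members called in Cdkn1a-/- against WT FL HSCs, ordered by log2 change (x axis), with the 3 WT samples as filled black and the 4 Cdkn1a-/- samples as open red circles; the dotted line is the minimum of 6.64. The groups are separate for every member, which the calls make likely, with changes from -8.76 (1452426_x_at) to 2.77 (1432960_at).

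The largest difference was that of 1452426_x_at, which read 13.48, 13.64 and 13.84 in the WT samples and 4.69, 5.37, 4.78 and 4.72 in the Cdkn1a-/- samples (log2 change -8.76, SE 0.19, limma adjusted p = 9.17e-06). 1455869_at read 9.32, 9.61 and 9.31 in WT and 2.49, 2.19, 2.01 and 2.49 in nulls (log2 change -7.11). Both were present in every sample of the C57BL/6 experiments, where they read 7.62 to 11.70 and 7.43 to 9.78 in their own normalizations. The next members also had nulls near the bottom of the scale.

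1442424_at changed by -5.32, 1456655_at by -5.05 and 1436061_at by -5.02, and their null samples read between 2.00 and 3.29, far under the minimum of 6.64, so the sizes and order of these changes, like those of the first pair, are uncertain. 1436230_at read 7.32, 9.29 and 8.07 in WT and 4.02, 3.83, 3.24 and 2.54 in nulls (log2 change -4.82), and read at most 2.85 in all Crebbp and Ep300 samples and MEFs. 1446484_at and 1434280_at kept a signal above the minimum in every null sample. The first read 9.69 to 10.75 in WT and 6.74 to 7.25 in nulls (log2 change -3.34), and the second 10.78 to 11.40 and 7.66 to 8.13 (log2 change -3.15). In limma the adjusted p of these 6 members ran from 0.000128 for 1456655_at to 0.0221 for 1436230_at.

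The other 8 members called lower were 1452556_at, 1431213_a_at, 1442120_at, 1447124_at, 1427798_x_at, 1441797_at, 1455892_x_at and 1440908_at, with changes from -2.97 to -0.83. The 4 called higher were dim except for 1445226_at. This probe set read 9.83, 9.95 and 10.17 in WT and 11.12, 11.13, 10.92 and 11.18 in nulls (log2 change 1.10), and read at most 3.74 in the Crebbp and Ep300 experiments. 1432960_at read 4.22, 4.18 and 4.18 in WT and 6.96, 7.24, 7.38 and 6.25 in nulls (log2 change 2.77), and 1442839_at and 1440508_at rose by 2.66 and 1.29.

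As a class, members had a higher median in Cdkn1a-/- than in WT FL HSCs, and this varied with single samples of both groups. The median change was 0.16 and 69.2% of the 2334 members were higher, against 0.05 for the weighted single-gene probe sets. Without WT sample 3 the same 2334 members had a median of 0.02 with 55.4% higher. The single-gene probe sets, unweighted, then had a median of 0.01 with 54.9% higher. Members were lower in WT sample 3 than in the mean of WT samples 1 and 2 by a median of 0.39, and 968 of them by more than 1.5 fold. Among 17897 single-gene probe sets the median difference was -0.09, and 2686 were lower by that fold. By null sample, the members' median change was 0.03, 0.28, 0.27 and 0.09 in samples 1 to 4, and WT sample 2 (0.15 on the scale centred on the experiment's mean) lay as high as null sample 3 (0.16). At an unadjusted p under 0.05 with a fold over 1.5, 99 members were higher and 58 lower (4.24% and 2.49%), against a background of 2.22% and 1.82%. Without WT sample 3 these counts were 54 and 70, without WT sample 2 they were 314 and 65, and without null sample 2 or 3 the members higher numbered 55 and 56. No background at these unadjusted settings is given here, so whether all probe sets moved alike was not tested. Without WT sample 3 the calls after adjustment were 3 higher and 16 lower, 14 of them shared with those from all samples, where 83 of all 20460 probe sets were called.

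The members not detected in MEFs again varied most. Centred on the experiment's mean, the 1755 tested in the Cdkn1a experiment had medians of -0.09, 0.25 and -0.52 in WT samples 1, 2 and 3 and -0.09, 0.34, 0.24 and -0.02 in null samples 1 to 4. The 579 detected in MEFs stayed between -0.06 and 0.02. Of the members tested in both fits and lower by more than 1.5 fold in Crebbp+/- FL HSCs, 189 of 283 (66.8%) had their lowest Cdkn1a value in WT sample 3, against 296 of the other 759. Among the 7 called members, 6 did so, for example 1447184_at at 2.22 there against 6.91 to 8.74 in the other 6 samples. These 283 had a median Cdkn1a change of 0.32 with all samples and of 0.04 without WT sample 3. The middle 18S control probe set was highest in WT sample 3 (14.88 against 14.31 to 14.57 in the other 6 samples), opposite to the direction in the Ep300 pools, and the liver cell markers and added control RNAs that mark this sample are given above. Their part in the members' values was not tested.

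In MEFs, the differences between Crebbp+/- and WT cells were small for members and single-gene probe sets alike. The median change of the 702 members tested was 0.01 (0.01, 0.00, 0.05 and 0.00 in litters 1 to 4), against 0.02 for the weighted single-gene probe sets, with 9 lower and 9 higher by more than 1.5 fold. In all 4 litters, 29 members were lower (4.13%) and 59 higher (8.40%), against 6.29% and 10.2% of single-gene probe sets. limma with the litter as a block called 0 members and 0 of 15502 probe sets (a background of 0%). At an unadjusted p under 0.05 with a fold over 1.5 it listed 6 members as lower and 6 as higher (1.71%), against a background of 0.961%. The methods' paired t-test listed 4 before adjustment, with no share over all probe sets given here, and none after it. These samples are single embryos, and sample medians of the members lay between 8.71 and 8.79.

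The 8 members with the smallest p in MEFs were all uncalled. 1423414_at read 7.46, 7.04, 7.19 and 7.49 in WT and 6.46, 6.40, 6.49 and 6.53 in Crebbp+/- MEFs without overlap (log2 change -0.82, limma adjusted p = 0.417). 1418701_at read 8.46, 8.64, 8.72 and 8.67 in WT and 9.65, 9.43, 9.62 and 10.19 in Crebbp+/- MEFs, also without overlap (log2 change 1.10). Its value in the Crebbp FL HSC comparison was 0.80, also uncalled (limma adjusted p = 0.139). Of the others, 1417185_at, 1451814_a_at and 1448737_at had log2 changes of -0.67, -0.37 and -0.39, and 1433471_at, 1441233_at and 1434029_at of 0.65, 0.44 and 0.34. None of the 8 was among the members called in FL HSCs.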

How the data were processed

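The deposited values were log2 expression levels that the authors computed with GCRMA separately for the 4 experiments, on 31 arrays, and the version was not given in the sources used here. Depth does not apply to arrays, and the number of samples limits the precision. Technical arrays were averaged, giving 23 samples, and groups came from the sample labels. Gene names came from the platform annotation, in which 34945 probe sets had 1 symbol, 932 several and 9160 none. Members and lists were chosen with earlier results of these data known. Where at least 1 sample of the fit reached log2(100), a probe set was tested on the log2 scale with limma 3.58.1 (R 4.3.3) and Benjamini-Hochberg adjustment over all of them. The threshold for a call was 0.05 on the adjusted p together with a change exceeding 1.5 fold. Crebbp and Ep300 FL HSCs were fitted together with the pair as a block, which the methods' paired test also used. The deviations from group means of same-numbered WT and mutant samples correlated at 0.70 (Crebbp) and 0.40 (Ep300) across probe sets, and MEF litters came from the labels. Cdkn1a samples were not paired. Each p-value sets a difference against the spread left between the samples of its fit. For the Crebbp and the Ep300 comparison this spread is pooled over the samples of both experiments. The text names, per comparison, the 8 called members with the largest change and the same direction in every pair or litter, or groups without overlap in the Cdkn1a experiment. Where fewer were called, the smallest p fills the list. It also names the 4 smallest p of the Crebbp minus Ep300 difference, the 6 brightest members in FL HSCs and in MEFs, and 2 members on each side of the minimum. The other 12 members called in the Cdkn1a experiment were added after their values were seen. The limma steps were tested on simulated data. Summaries used Python 3.11.15 with pandas 2.3.3. The study's lists of differential and RT-PCR probe sets were used to leave out probe sets. Values of listed probe sets were also given beside those of the members, for description only.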

Additional observations from a re-analysis of the deposited data

Results flagged for a closer look

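Of 27 groups of 4 samples examined with Dixon's test, which chance alone exceeds in about 1 in 20 groups, 1 held a sample far from the others. For 1452426_x_at, Cdkn1a-/- sample 2 read 5.37 against 4.69 to 4.78 in the other null samples (a gap of 0.871 of the group's range), and all 4 lay far below the WT samples.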

How the results depend on the processing

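The 7 Crebbp calls sat at the edge of the threshold. Their number was 0 with no replicate block, in the 4 Crebbp samples alone, with no level filter, on technical array 1 or 2 alone and in the methods' t-test after Benjamini-Hochberg adjustment, and 0 to 0 when a Crebbp or an Ep300 pair was left out. The number of members called was 50 of 700 with a highest sample of log2(200), where 276 of all 10275 probe sets were called. It was 47 of 886 with a mean of log2(100) (220 of all 12324) and 49 of 1049 after centring each sample on its median (208 of all 13332). An intensity trend in the variance gave 181 of 1049 (876 of all 13332). With the unnamed tabulated probe sets counted as members it was 25 (51 of all 13332). The methods' t-test before adjustment gave 16. This threshold is unlike the others and no share over all probe sets is given here, so nothing is read from it. The cause was not tested. The members' median Crebbp change moved to -0.23 with _at probe sets alone, and leaving out a pair kept it between -0.18 and -0.07. Before adjustment, the methods' t-test listed 3 members in Ep300+/- FL HSCs and 4 in MEFs, also without a share over all probe sets. The intensity trend called 15 of 1049 members for the Crebbp minus Ep300 difference (69 of all 13332 probe sets), where limma without it had called none. The 20 Cdkn1a calls (85 of all 20962 probe sets) became 3 (6 of all 20898) with a replicate block on sample numbers 1 to 3. That number does not mark a shared origin here, and only WT samples 1 and 2 correlated best with their own number. The calls became 9 with no level filter (42 of all 45037) and 8 with a mean of log2(100) (38 of all 19329). They were 8 to 19 when 1 sample was left out, where 38 to 87 were called over all probe sets. Among these were 8 without null sample 2, 10 without null sample 1 or 4, 12 without WT sample 1 and 13 without null sample 3. The methods' t-test before adjustment gave 96 members in the Cdkn1a comparison. The methods state paired tests, whereas the Cdkn1a samples were not paired here. That threshold is also unlike the others and no share over all probe sets is given here, so nothing is read from the 96. The members' median Cdkn1a change ranged from 0.028 without WT sample 3 to 0.29 without WT sample 2. Dropping the level filter would make 9092 members of 2464. No named called member changed direction under any setting, although 61 of 84 values of the Crebbp members and 11 of 97 of the Cdkn1a members lost the call. The alternative that would have left out members named through an accession was not run, since no accession of a member was available here.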
